A study of Mus musculus with 2 samples.

Results

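The genes described here are 6 cyclin-dependent kinase (CDK) inhibitors, the 3 D cyclins and the retinoblastoma gene Rb1. They were taken as a named list, and every probe set that names 1 of these 10 genes alone was used, 23 probe sets of 45037 on the array and 10 genes of 18193. Cells of the female mouse line PGK12.1 were measured after 15 days as embryoid bodies, on 1 Affymetrix array, and set against the undifferentiated (day 0) line, on 1 array. Per the labels, the line came from blastocysts of a 129 female and a (129 X PGK)F1 male and was used at passage 14-18. It was kept with leukemia inhibitory factor on mouse embryonic fibroblast feeders. The feeders were removed on gelatin before the cells were collected or put into differentiation, and the share left was not given. The series was made to follow the X chromosome, and the labels name no lineage for the embryoid bodies.

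D cyclins bind CDK4 and CDK6 in the G1 phase, and these kinases phosphorylate the retinoblastoma protein, which otherwise holds E2F transcription factors inactive. The INK4 proteins (Cdkn2a to Cdkn2d) bind CDK4 and CDK6 and keep D cyclins from them, while the CIP/KIP proteins (Cdkn1a and Cdkn1b here) bind cyclin-CDK complexes and block CDK2 above all. Mouse embryonic stem cells are known for a short G1 phase, with low levels of CDK inhibitors and little use of D cyclins, and the brakes build up as they leave the stem cell state.

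The brakes were higher at day 15 and the D cyclins were split. Of the 7 brakes, meaning the 6 inhibitors and Rb1, 5 were higher at day 15 by 2-fold or more and 0 were lower by that much, whereas of the 3 D cyclins only Ccnd2 was higher by 2-fold or more and 0 were lower. Among all 11960 genes that passed the expression filter, 16.5% were higher by 2-fold or more and 8.41% were lower by 2-fold or more. The median log2 difference, day 15 minus undifferentiated, was 1.55 over the 7 brakes, 0.36 over the 3 D cyclins, 1.37 over all 10 genes and 0.00052 over all genes above the filter. A log2 difference is taken on log2(signal + 16), which understates dim genes, and a fold is the ratio of the deposited signals. With 1 array per condition no value has a replicate error and no test was possible, so differences are described by size alone. The yardsticks at hand were technical. Log2 differences read by several probe sets of 1 gene scattered with an SD of 0.53. The log2 ratios of 18 hybridization controls, day 15 over undifferentiated, had a mean of 0.39 and an SD of 0.11. The Dap and Lys bacterial control probe sets, 6 of each, differed between the arrays: Dap read at most 18.1 at day 15 and at least 4158 in undifferentiated cells, and Lys at least 5124 at day 15 and at most 15.3 in undifferentiated cells. Array preparation and condition cannot be told apart. In bulk RNA, fewer cells of a type and less RNA per cell cannot be told apart.

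All 10 genes were above the filter, which lies at a signal of about 36.5, through at least 1 probe set, and the brightest probe set of each of the 10 also lay above 35.6 on both arrays. That value is the brightest of 15 bacterial control probe sets without target RNA and serves as the floor for folds. Of the 23 probe sets, 18 were above the filter, of which 16 were higher and 2 lower at day 15.

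**Figure D1:**
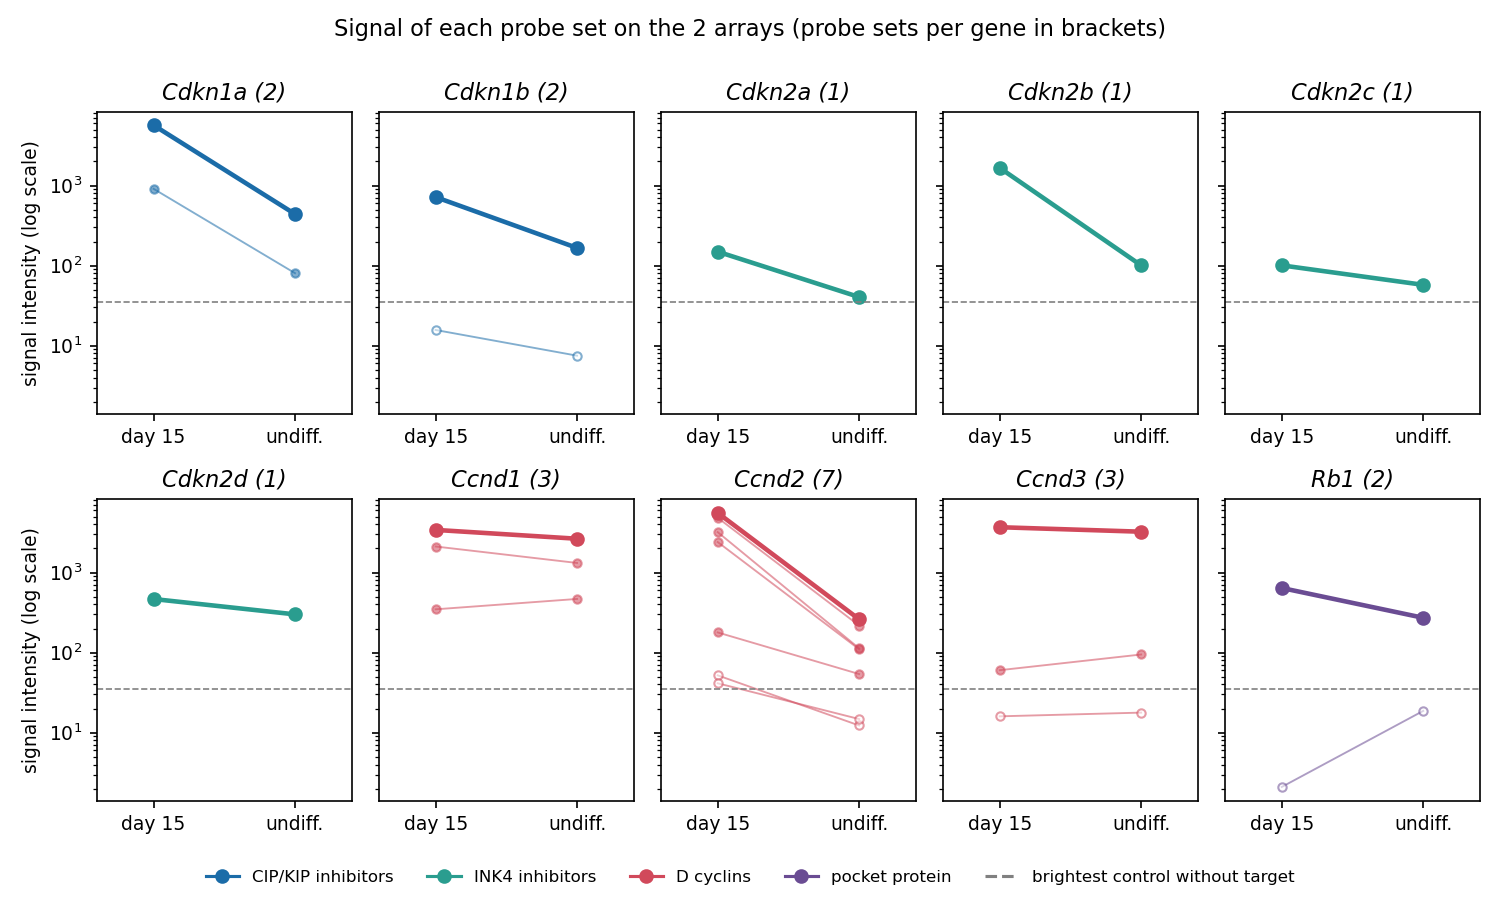
Signal of every probe set of the 10 genes on the day 15 array (left in each panel) and the undifferentiated array (right), on a log axis. The bold line is the brightest probe set of the gene, open circles are probe sets below the filter, and the dashed line is the brightest control without target (35.6). Cdkn1a, Cdkn2b and the bright Ccnd2 probe sets have the steepest lines, and Ccnd3 (3681 and 3236) is nearly level.

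Among the CIP/KIP inhibitors, Cdkn1a (Entrez Gene 12575), an inhibitor induced by p53 and by other signals, had a signal of 5665 at day 15 and 440.4 in undifferentiated cells. This was 12.9-fold higher at day 15, a log2 difference of 3.64 that exceeded those of 98.4% of genes. Its second probe set read 910 at day 15 and 80.5 in undifferentiated cells (11.3-fold, log2 difference 3.26), so both probe sets of the gene gave a like size. Cdkn1b (Entrez Gene 12576), an inhibitor tied to cell cycle exit and controlled largely through protein turnover, measured 717 at day 15 and 166 in undifferentiated cells. It was 4.31-fold higher at day 15, with a log2 difference of 2.01, above 93.5% of genes. The other Cdkn1b probe set lay below the controls without target on both arrays, at 15.7 at day 15 and 7.5 in undifferentiated cells, and gives no fold. The log2 difference of Cdkn1a was 1.63 above that of Cdkn1b.

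Of the 4 INK4 genes, Cdkn2b had a large gain, Cdkn2a a smaller one, and Cdkn2c and Cdkn2d lay within 2-fold. Cdkn2b (Entrez Gene 12579), an inhibitor known as a target of TGF-beta signalling, had 1661 at day 15 and 101 in undifferentiated cells. It was 16.5-fold higher at day 15, with a log2 difference of 3.85, above 98.6% of genes. Cdkn2a (Entrez Gene 12578), whose locus encodes both the INK4a inhibitor and, in another reading frame, the p53 activator ARF, measured 149 at day 15 and 40.5 in undifferentiated cells. That is 3.69-fold higher, a log2 difference of 1.55, with the undifferentiated signal close to the controls without target. The gene did not enter the count with the filter at the 75th percentile or with suffixed probe sets left out. Only 1 probe set names Cdkn2a, and its suffix "a" marks probes shared by transcripts of 1 gene, so INK4a and ARF transcripts were not told apart. Cdkn2c (Entrez Gene 12580), which acts in many developing tissues, measured 101 at day 15 and 57.5 in undifferentiated cells (1.75-fold higher, log2 difference 0.67). Cdkn2d (Entrez Gene 12581), an INK4 gene of broad expression, measured 467 at day 15 and 300.3 in undifferentiated cells, 1.55-fold higher with a log2 difference of 0.61. The log2 difference of Cdkn2b exceeded that of Cdkn2a by 2.30, that of Cdkn2c by 3.18 and that of Cdkn2d by 3.24. Each of the 4 genes has 1 probe set, so none has a second reading.

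Cdkn2a and Cdkn2b lie side by side among the annotated protein-coding genes, and their protein-coding neighbours were measured too. Mtap, the methylthioadenosine phosphorylase gene on the Cdkn2a side, read 2148 at day 15 and 1158 in undifferentiated cells, 1.85-fold higher. Dmrta1, on the Cdkn2b side, lay below the controls without target on both arrays, at 14.6 at day 15 and 6.4 in undifferentiated cells. Of these 4 protein-coding genes, Cdkn2b therefore had the largest log2 difference (3.85), then Cdkn2a (1.55) and Mtap (0.88).

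The stretches before the transcription starts of Cdkn1a, Cdkn1b, Cdkn2a and Cdkn2b are shown, because these 4 inhibitor genes were higher together at day 15 and each start has its own upstream sequence. RefSeq windows (GRCm38.p6) were matched for 7 of the 10 genes, in 11 windows, and the 250 bases before each start were read 5′ to 3′ on the gene's strand. Cdkn1a has 2 annotated starts and Cdkn2a has 2, of which the one nearer Cdkn2b opens the ARF transcript. Capitals mark the GC box GGGCGG on either strand, the letters TGACGTCA of a cyclic AMP response element, and ACATGT where it occurs at least 2 times.
Cdkn2b, chr4:89311033-89311282, minus strand: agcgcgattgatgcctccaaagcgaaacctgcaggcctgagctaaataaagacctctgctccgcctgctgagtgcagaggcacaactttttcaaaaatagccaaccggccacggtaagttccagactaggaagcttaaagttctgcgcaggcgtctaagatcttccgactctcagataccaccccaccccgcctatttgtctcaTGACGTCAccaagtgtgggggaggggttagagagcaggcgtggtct
Cdkn2a at the ARF start, chr4:89294620-89294869, minus strand: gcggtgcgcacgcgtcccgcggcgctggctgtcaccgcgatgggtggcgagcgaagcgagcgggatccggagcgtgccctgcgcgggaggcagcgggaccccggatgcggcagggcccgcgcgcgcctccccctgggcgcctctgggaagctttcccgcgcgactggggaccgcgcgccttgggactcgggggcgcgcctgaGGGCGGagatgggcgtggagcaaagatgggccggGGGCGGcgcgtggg
Cdkn2a at the INK4a start, chr4:89282193-89282442, minus strand: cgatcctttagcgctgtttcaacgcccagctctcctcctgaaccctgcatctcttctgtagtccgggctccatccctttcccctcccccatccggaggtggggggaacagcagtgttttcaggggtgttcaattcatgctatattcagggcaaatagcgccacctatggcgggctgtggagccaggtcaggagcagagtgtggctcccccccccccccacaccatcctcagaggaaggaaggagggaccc
Cdkn1a upstream start, chr17:29090729-29090978, plus strand: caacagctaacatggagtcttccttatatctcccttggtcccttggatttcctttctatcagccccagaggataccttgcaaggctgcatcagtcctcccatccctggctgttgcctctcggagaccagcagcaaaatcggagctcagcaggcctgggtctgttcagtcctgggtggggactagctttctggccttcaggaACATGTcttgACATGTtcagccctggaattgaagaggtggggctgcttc
Cdkn1a downstream start, chr17:29093519-29093768, plus strand: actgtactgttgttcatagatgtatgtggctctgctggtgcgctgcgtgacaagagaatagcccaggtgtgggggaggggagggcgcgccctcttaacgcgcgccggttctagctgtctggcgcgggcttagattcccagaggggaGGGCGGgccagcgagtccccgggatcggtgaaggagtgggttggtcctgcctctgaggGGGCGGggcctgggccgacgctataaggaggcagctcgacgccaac
Cdkn1b, chr6:134920151-134920400, plus strand: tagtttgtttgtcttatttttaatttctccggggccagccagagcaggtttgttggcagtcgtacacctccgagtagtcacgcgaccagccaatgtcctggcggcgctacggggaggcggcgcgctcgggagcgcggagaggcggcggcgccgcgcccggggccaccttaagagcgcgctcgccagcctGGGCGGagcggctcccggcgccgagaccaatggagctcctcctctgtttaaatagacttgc

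The letters in capitals were not the same in all 6 windows. The Cdkn2b window held TGACGTCA and no GC box, and TGACGTCA was in 1.55% of all 32851 windows of the same length. The window at the upstream Cdkn1a start held 2 copies of ACATGT, a core found in p53 response elements, and 0.247% of all windows held at least 2. Only for ACATGT were 2 copies required, and 1 copy sufficed for the other patterns. Its share is therefore not comparable with theirs. The downstream Cdkn1a window held 2 GC boxes, as did the ARF window, the Cdkn1b window held 1, and the INK4a window had none. GC boxes stood in 7 of the 11 windows of the listed genes and in 32.7% of all windows. The windows not printed belong to genes within 2-fold, and they held GC boxes too. Those of Cdkn2c held 0 and 3, that of Cdkn2d held 3, and those of Ccnd3 held 2 and 1. Searched on both strands in the same way, TTTNNCGC was in 2 of 11 windows (both of Cdkn2a) and in 4.28% of all. It is a loose form of an E2F site in which N is any base, so a match need not be such a site. The letters matched were TTTCCCGC in the ARF window and TTTAGCGC in the INK4a window. CCAAT was in 3 of 11 windows and in 33.8% of all. CACGTG and TGANTCA were in 0 of 11 windows, against 6.02% and 6.75% of all. Each match describes letters in a window and was not tied to the signals by any measurement.

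Among the D cyclins, Ccnd2 had the largest log2 difference of the 10 genes. Ccnd2 (Entrez Gene 12444), the D cyclin of gonads and several developing tissues, had a signal of 5562 at day 15 and 261 in undifferentiated cells on its brightest probe set. It was 21.3-fold higher at day 15, with a log2 difference of 4.33, above 99.1% of genes. The 4 bright probe sets of Ccnd2 were alike: beside the first, they read 4834 at day 15 and 218 in undifferentiated cells (22.2-fold), 3198 and 113 (28.3-fold), and 2404 and 110.2 (21.8-fold). The remaining 3 were dim, at 179 at day 15 and 54.0 in undifferentiated cells (3.31-fold), 52.0 and 12.3 (at least 1.46-fold), and 41.4 and 14.8 (at least 1.16-fold). All 7 were higher at day 15, with log2 differences of 4.26 to 4.64 for the bright 4 and 0.90 to 1.48 for the dim 3. The probe sets thus shared a direction and differed in size with their brightness.

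Ccnd1 and Ccnd3 were bright on both arrays and stayed within 2-fold. Ccnd1 (Entrez Gene 12443), a D cyclin known to respond to growth factor signalling, had 3407 at day 15 and 2644 in undifferentiated cells, 1.29-fold higher on its brightest probe set with a log2 difference of 0.36. Its probe sets did not share a direction: a second read 2114 at day 15 and 1317 in undifferentiated cells (log2 difference 0.68), and the third 347 and 468 (-0.41). Ccnd3 (Entrez Gene 12445), the D cyclin best known from lymphoid and muscle cells, had 3681 at day 15 and 3236 in undifferentiated cells, 1.14-fold higher on its brightest probe set with a log2 difference of 0.19. A dimmer Ccnd3 probe set read 60.3 at day 15 and 94.7 in undifferentiated cells (-0.54), and the third lay below the controls without target on both arrays. For both genes the probe sets span 0, so no direction is given. By the brightest probe sets, the difference of Ccnd2 lay 3.97 above that of Ccnd1 and 4.15 above that of Ccnd3 on the log2 scale. The Ccnd2 probe sets above the filter themselves ran from 1.48 to 4.64. With 1 array per condition the error of these gaps is not known.

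Rb1 (Entrez Gene 19645), the pocket protein that D cyclin kinases act on, had 641 at day 15 and 272 in undifferentiated cells. It was 2.36-fold higher at day 15, with a log2 difference of 1.19, and of the genes past 2-fold in the list it was nearest the threshold. Scaling on the hybridization controls brought it to 0.81, which is within 2-fold. Its other probe set lay below the controls without target on both arrays (2.10 at day 15 and 18.7 in undifferentiated cells).

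**Figure D2:**
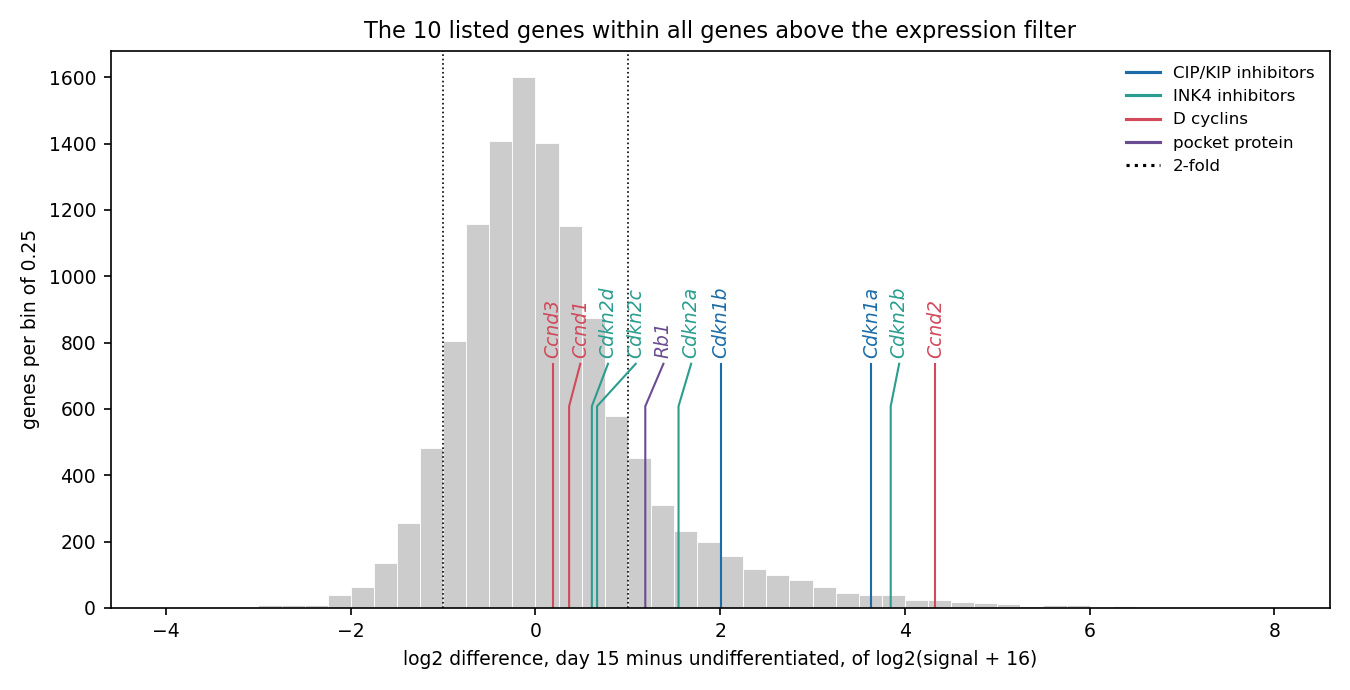
Number of genes (y axis) per bin of log2 difference, day 15 minus undifferentiated (x axis), for the 11960 genes above the filter, with a line for each of the 10 genes. Dotted lines mark 2-fold; Ccnd2 (4.33), Cdkn2b (3.85) and Cdkn1a (3.64) lie in the right tail, and Ccnd3 (0.19) and Ccnd1 (0.36) in the main body.

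The scaling of the arrays matters for the genes near 0. As deposited, 66.3% of all genes past 2-fold were higher at day 15, against 54.6% after quantile normalization and 37.7% after scaling on the hybridization controls. These changes moved the median of all genes to -0.13 and -0.36. Ccnd1 then stood at 0.55 and -0.02, and Ccnd3 at 0.37 and -0.20. Both remained above the median of all genes. Cdkn1a, Cdkn1b, Cdkn2a, Cdkn2b and Ccnd2 were higher by 2-fold or more under both scalings. The brakes Cdkn2c (0.67 as deposited) and Cdkn2d (0.61) came nearer 0. Cdkn2c stood at 0.39 after quantile normalization and 0.34 after scaling on the hybridization controls, and Cdkn2d at 0.44 and 0.23.

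**Figure D3:**
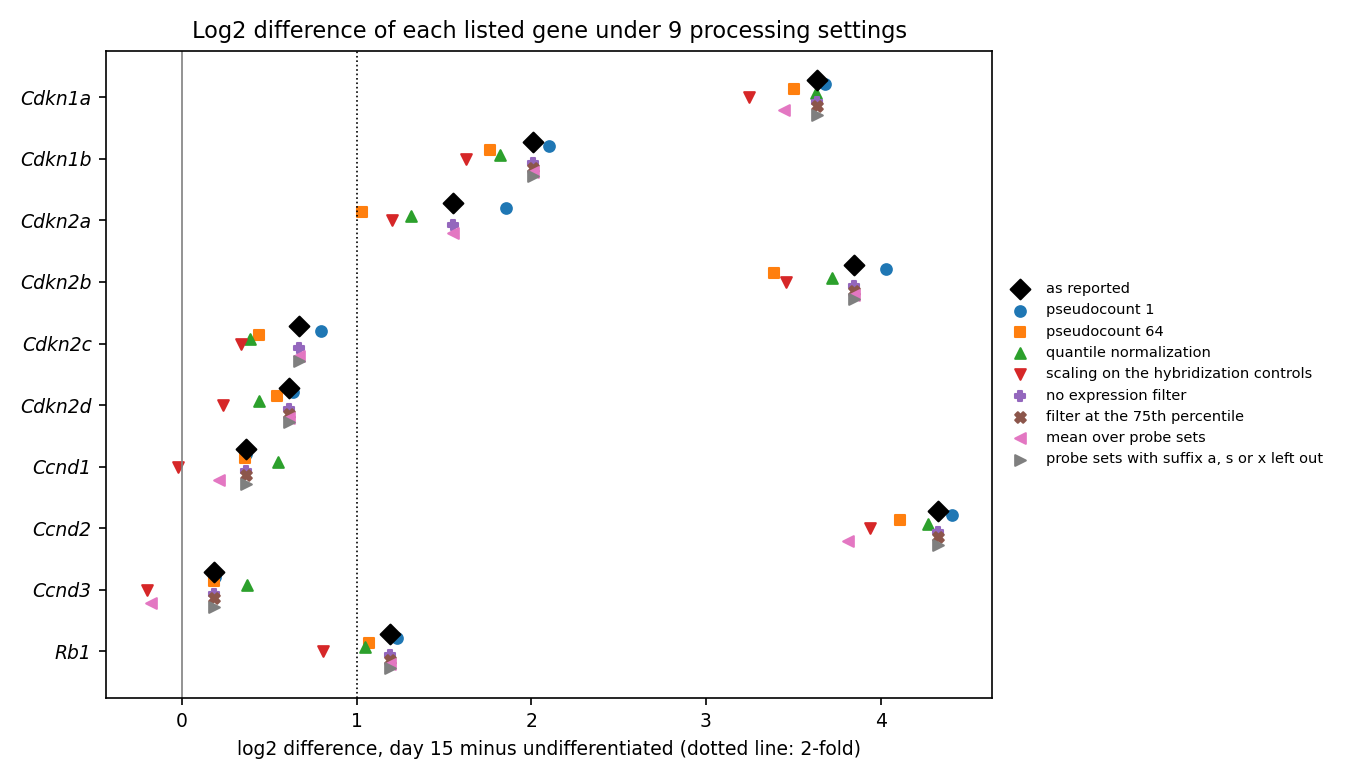
Log2 difference, day 15 minus undifferentiated (x axis), of each gene (rows) as reported (black diamonds) and under 8 other processing settings (coloured symbols). The solid line marks 0 and the dotted line 2-fold; Ccnd2 keeps between 3.82 and 4.41, Rb1 crosses 2-fold, and Ccnd1 and Ccnd3 cross 0.

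The partners of these genes in the G1 and E2F pathway were measured from a list of 27, all above the filter. Lower at day 15 by 2-fold or more were 3 (11.1%, against 8.41% of all genes), and higher were 2 (7.41%, against 16.5%). Their median log2 difference was -0.27, and 19 of 27 lay below 0. Of the D cyclin kinases, Cdk6 had 531 at day 15 and 153 in undifferentiated cells, 3.48-fold higher, and its 2 probe sets above the filter gave 1.68 and 1.70. Cdk4 had 3574 at day 15 and 3933 in undifferentiated cells, with a log2 difference of -0.14 and 3 probe sets between -0.14 and 0.0018. The difference of Cdk6 lay 1.84 above that of Cdk4. Cdkn1c, the third CIP/KIP inhibitor and an imprinted gene, had 423 at day 15 and 129.5 in undifferentiated cells, 3.26-fold higher.

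On the log2(signal + 16) scale, the partner genes other than Cdk6 and Cdkn1c were lower by 2-fold or more or lay within 2-fold. Not all of them lay below 0. On their brightest probe sets Ccne2, a cyclin E gene, stood at 0.27, E2f3 at 0.03, E2f5 at 0.34 and E2f6 at 0.46. Of all 27 partner genes, 19 lay below 0. Ccne1, the cyclin E that activates CDK2 at the start of replication, had 902 at day 15 and 3396 in undifferentiated cells, 3.77-fold lower on the signals (log2 difference -1.89). Its kinase gene Cdk2 had 647 at day 15 and 1168 in undifferentiated cells (log2 difference -0.84). Cdc25a, the phosphatase that activates CDK2, had 516 at day 15 and 1157 in undifferentiated cells (-1.14). E2f4, an E2F that works with pocket proteins as a repressor, had 264 at day 15 and 903 in undifferentiated cells (-1.71), from its single probe set. Of the other pocket protein genes, Rbl1 had 384 at day 15 and 189 in undifferentiated cells (log2 difference 0.97, with another probe set at -0.47). Rbl2 had 182 at day 15 and 90.2 in undifferentiated cells (0.90, with another at 0.18). With a pseudocount of 1 both pocket genes passed 2-fold, and 4 genes of the list were then higher in place of 2. As reported, they stood just short of 2-fold on the log2(signal + 16) scale, with signal ratios of 2.03 (Rbl1) and 2.01 (Rbl2). With scaling on the hybridization controls 8 genes of this list were lower by 2-fold or more, Cdk2 and Ccna2, the cyclin A gene, among them, while the share of all genes lower by that much was 18.8% under the same scaling.

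**Figure D4:**
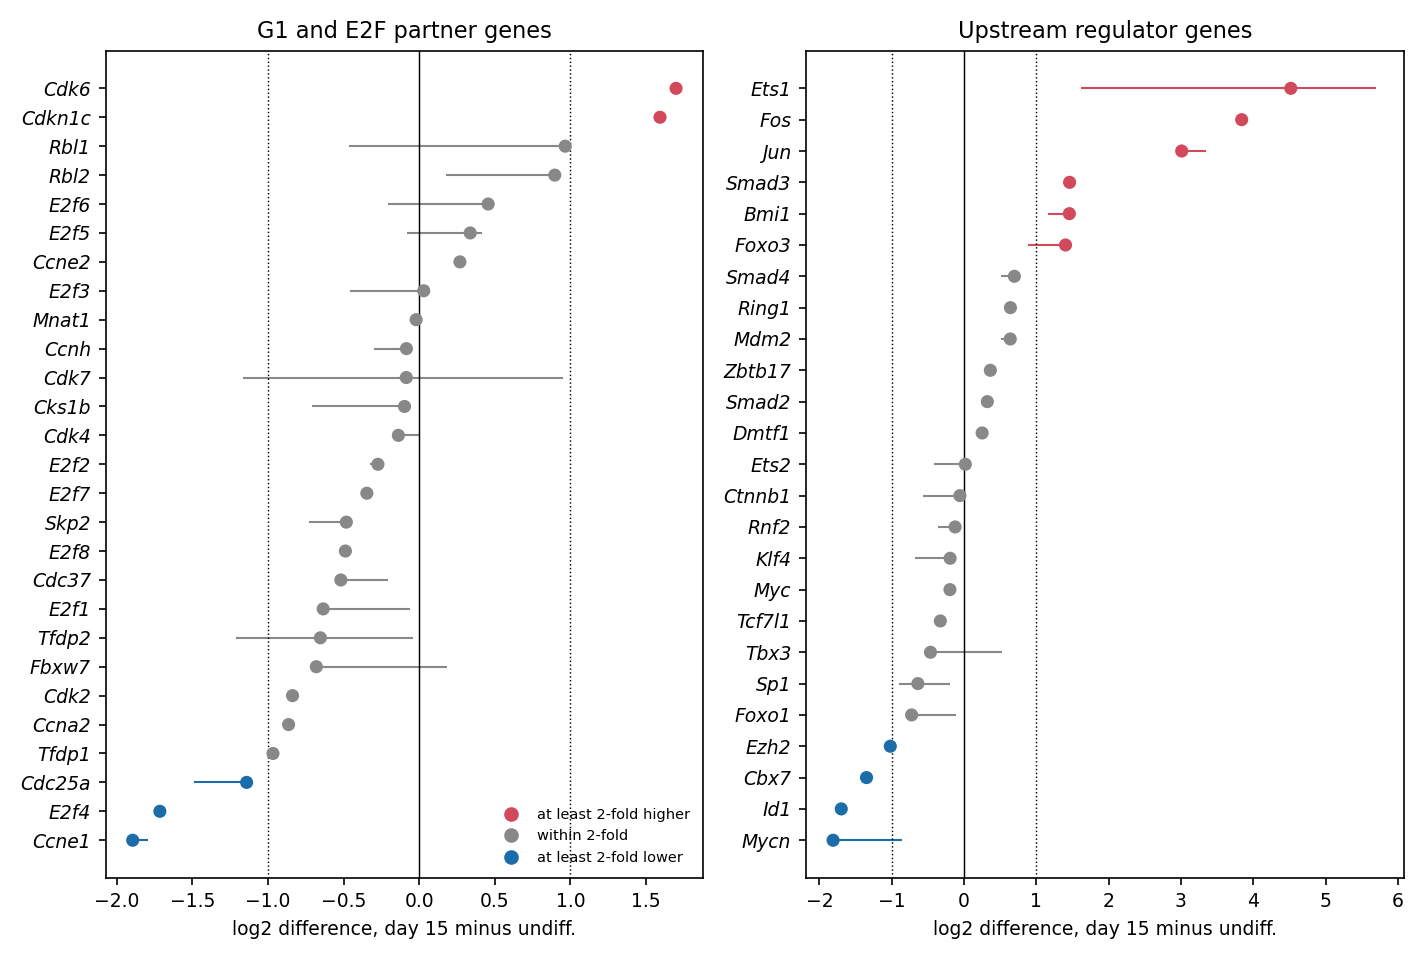
Log2 difference, day 15 minus undifferentiated (x axis), of the G1 and E2F partner genes (left) and of known upstream regulators (right) above the filter, one gene per row. Points are the brightest probe set, bars span the probe sets above the filter, and dotted lines mark 2-fold; Cdk6 (1.70) and Cdkn1c (1.59) lead the left panel and Ccne1 (-1.89) closes it, while Ets1 (4.52), Fos (3.84) and Jun (3.01) lead the right panel.

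Known regulators of the listed genes, in a list of 27, were measured for 26 genes, of which 25 were above the filter. Higher at day 15 by 2-fold or more were 6 (24%, against 16.5% of all genes) and lower were 4 (16%, against 8.41%). The ETS factor gene Ets1, an activator of the INK4a promoter in human cells, had 1035 at day 15 and 29.8 in undifferentiated cells, at least 29.1-fold higher, and its probe sets above the filter lay between 1.61 and 5.70. Of the AP-1 genes, which answer growth and stress signals, Fos had 2060 at day 15 and 129 in undifferentiated cells (log2 difference 3.84), and Jun had 1206 at day 15 and 136 in undifferentiated cells (3.01). Smad3, a mediator of TGF-beta signals, had 652 at day 15 and 227 in undifferentiated cells (2.88-fold). Foxo3, which belongs to the FOXO factors that activate Cdkn1b, had 816 at day 15 and 298 in undifferentiated cells (2.74-fold). With suffixed probe sets left out, Foxo3 was not called higher. Foxo1, the other FOXO gene of the list, went the other way within 2-fold, at 199.9 at day 15 and 340.6 in undifferentiated cells (log2 difference -0.72).

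Polycomb genes, whose products are known to repress the Cdkn2a and Cdkn2b locus, numbered 5 in the list, of which 1 was higher by 2-fold or more, 2 were lower and 2 lay within 2-fold. Bmi1 had 633 at day 15 and 220.1 in undifferentiated cells, 2.87-fold higher. Cbx7 had 367 at day 15 and 959 in undifferentiated cells (log2 difference -1.35), and Ezh2 had 1515 at day 15 and 3085 in undifferentiated cells (-1.02), a call that a pseudocount of 64 and quantile normalization each ended. Ring1 (log2 difference 0.64) and Rnf2 (-0.12) lay within 2-fold. Mycn, which encodes a Myc family factor, had 1251 at day 15 and 4425 in undifferentiated cells (-1.81). Id1, which encodes an inhibitor of helix-loop-helix factors, had 527 at day 15 and 1743 in undifferentiated cells (-1.70). Id1 has only 1 probe set, a suffixed one, and was not called with suffixed probe sets left out. Myc itself, known to repress Cdkn1a and Cdkn2b, had 612 at day 15 and 702 in undifferentiated cells, a log2 difference of -0.19. Mdm2, a p53 target like Cdkn1a, had 1574 at day 15 and 1004 in undifferentiated cells, 1.57-fold higher.

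The genes with the most similar pair of signals were sought by Euclidean distance of log2(signal + 16), a likeness over 2 arrays only. Nearest to Cdkn1a were Sh3bgrl (4387 at day 15 and 412 in undifferentiated cells, distance 0.38) and Anxa2 (0.55). Nearest to Cdkn2b were Myl9 (1633 at day 15 and 93.7 in undifferentiated cells, 0.091) and Mmd (0.093). Nearest to Ccnd2 were Tagln (6397 at day 15 and 226 in undifferentiated cells, 0.28) and Prnp (0.32).

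Markers of differentiated cell types moved in the same direction as the brakes and Ccnd2, and their part in these results was not tested. Stem cell markers were still present at day 15: 7 of 10 were lower by 2-fold or more, and their summed signal was 29992 at day 15 against 56047 in undifferentiated cells, or 53.5%. Of 14 fibroblast markers 13 were higher by 2-fold or more, with summed signals of 50137 at day 15 and 2660 in undifferentiated cells. In undifferentiated cells 6 of the 14, Col1a1, Col6a1, Postn, Lum, Pdgfrb and Twist1, lay at or below the controls without target. By the same measure 5 of 6 smooth muscle markers were higher (sums of 28919 at day 15 and 1231 in undifferentiated cells), 4 of 6 cardiac markers (4545 at day 15 and 221 in undifferentiated cells) and 4 of 6 yolk sac endoderm markers (3156 at day 15 and 157 in undifferentiated cells). Of 5 leukocyte markers 2 were higher, with sums of 929 at day 15 and 1049 in undifferentiated cells. Without Laptm5 (490.3 at day 15 and 949 in undifferentiated cells) the sums of the other 4 were 439 at day 15 and 100 in undifferentiated cells. Ptprc, which marks all leukocytes, lay below the controls without target on both arrays.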

How the data were processed

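Per the labels' protocols, total RNA was made into biotinylated cRNA for Affymetrix arrays, 1 per condition. The authors deposited a linear intensity for each of 45101 probe sets; which software summarised the probes is not given in the sources used here. After trimming 2% at each end both columns averaged 250.0, so the deposited intensity values were already scaled to each other. The number of arrays limits the precision. Without 64 control probe sets, 45037 remained: the platform annotation named 1 gene for 34945, several for 932 and none for 9160, and symbols were updated through RefSeq (GRCm38.p6). The brightest probe set by mean log2(signal + 16) stood for a gene, and a gene was counted if that mean reached the median over all probe sets. A call needs a log2 difference of 1 in either direction. Folds with the dimmer signal under 35.6 were computed against 35.6, a bound chosen after the data were seen. The calling code was run on simulated data with planted differences beyond the threshold. That run checks the code and does not measure the error of these arrays. Alternatives were pseudocounts of 1 and 64, quantile normalization, scaling on 18 hybridization controls, other filters (none, or the 75th percentile), probe set means, and only probe sets without the suffix a, s or x.

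The members and lists were chosen with earlier results of these data known. The naming rule took all 10 genes, called partners and regulators up to 6 on each side, Cdk2, Cdk4, Cdk6, Cdkn1c, Rbl1 and Rbl2, and the 2 genes nearest to the leading CIP/KIP, INK4 and D cyclin gene. Mtap, Dmrta1, Ccna2, Myc, Mdm2, Ring1, Rnf2, Foxo1, Ccne2, E2f3, E2f5 and E2f6 were named after their values were seen. The listed regulator Trp53, the p53 gene, was not measured, because no probe set was found that names it alone. Python 3.11.15, numpy 2.4.6 and pandas 2.3.3 were used.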

Additional observations from a re-analysis of the deposited data

How the results depend on the processing

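Under all 8 alternatives the counts of brakes and of D cyclins past 2-fold stayed within 1.5 times of those reported (5 and 1), and the median of the listed genes stayed between 1.00 and 1.60. The 5 brakes became 4 in 3 settings: without Rb1 when scaled on the hybridization controls, and without Cdkn2a under the 75th percentile filter or when suffixed probe sets were dropped. Partner genes past 2-fold downward numbered 8 when scaled on the hybridization controls, against 3 as reported and 3 or 4 otherwise; that scaling lowers every day 15 signal alike, and 18.8% of all genes were then past 2-fold downward, against 8.41%. Partner genes past 2-fold upward numbered 4 with a pseudocount of 1, against 2 as reported, a count compared across settings after the data were seen. Regulators past 2-fold numbered 3 to 6 downward and 5 to 6 upward. Ccnd3 stood at -0.18 as a probe set mean. No paired analysis was possible because each condition has 1 array. Signals near 35.6, such as that of Cdkn2a in undifferentiated cells, have little room above background.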
